A study of Sus scrofa with 9 samples.

Results

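Transcripts of the cytosolic ribosomal proteins were followed in testicular biopsies of a boar with a reciprocal translocation, of an oligospermic boar and of control boars. Members were taken by name only. A probe entered if its gene name was that of a protein of the large (RPL) or small (RPS) ribosomal subunit, or if its description named such a protein, and mitochondrial ribosomal proteins, ribosomal protein kinases and antisense probes were left out. The array held 269 such probes of 72 genes among its 60889 probes. Another 42 probes whose description matched a bacterial, organellar or other non-vertebrate protein, or too little of a protein, were dropped. For 62 of the 72 genes at least 1 probe was listed in the deposited table of 38759 log2 values, and the probe with the highest mean in that table stood for the gene. Of these 62 genes, 18 were recognized by their description alone, among them RPL4, RPL10L, RPL22, RPL36A and RPL36AL.

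Ribosomal proteins assemble with ribosomal RNA into the large and the small subunit, and each mature ribosome holds a single copy of nearly all of them. Their mRNAs are among the most abundant of most cells and share a pyrimidine tract at their start through which growth signals control translation. In the testis, genes of the X chromosome are silenced in spermatocytes during meiosis, and several X-linked ribosomal protein genes have an autosomal copy that is active in germ cells. RPL10L is such a copy of RPL10 and is needed for male meiosis in the mouse, and RPL36AL is a copy of RPL36A.

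Each of the 3 groups was represented by 3 single-colour arrays. The t(1;14) arrays came from 1 Landrace × Duroc crossbred boar labelled trcp(1;14) and oligo-astheno-teratospermic, that is with few, poorly moving and misshapen sperm. The oligospermic arrays came from 1 boar with low sperm numbers and a normal karyotype, and the control arrays from 3 fertile boars with normal semen and a normal karyotype, elsewhere described as a pool. The labels give no age. The arrays of a group hold separate RNA extractions, which the study calls technical replicates in one place and biological replicates in another. The sources used here do not say whether a control array holds 1 boar or a pool, so each p-value compares arrays and not populations of boars, and other differences between the animals cannot be told apart from the translocation. Each of 3 slides carried 1 array of every group. Between 37087 and 40632 probes per array were well above background and between 52 and 275 were saturated. Of the 62 ribosomal protein probes, 61 were well above background on every array. The median SD of the 62 genes within a group was 0.17 in controls, 0.12 in the oligospermic group and 0.10 in the t(1;14) group on the log2 scale, against 0.24, 0.18 and 0.13 over 41105 probes. The 3 comparisons share arrays pairwise, so that none is independent of the others.

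The probes of both pairs of X-linked gene and autosomal copy are shown because gene and copy differed in how they changed in t(1;14). Each sequence is given 5′ to 3′ as deposited for the array, and capitals mark the bases that differ between the 2 probes of a pair where they overlap.
RPL10: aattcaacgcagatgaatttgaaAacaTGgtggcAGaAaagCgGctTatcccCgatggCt
RPL10L: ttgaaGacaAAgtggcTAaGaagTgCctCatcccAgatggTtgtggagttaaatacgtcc
RPL36A: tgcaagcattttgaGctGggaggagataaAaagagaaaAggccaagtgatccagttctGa
RPL36AL: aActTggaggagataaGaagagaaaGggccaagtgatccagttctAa
The RPL10 and RPL10L probes overlapped over 42 bases and differed at 11 of them. The RPL36A and RPL36AL probes overlapped over 47 bases and differed at 5 of them, and of the RPL36AL probe the 47 bases up to the stop codon are printed of 60. None of the 62 probes shared a run of 25 bases with a probe of another member gene. Whether a probe also bound the transcript of the other gene of its pair was not tested. By gene symbol in the RefSeq table of Sscrofa11.1, RPL10, RPL36A and RPS4 (listed there as RPS4X) lie on chromosome X, and RPL10L and RPL36AL on chromosome 1. The array files themselves place no probe on the genome.

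The first comparison asked how the t(1;14) testis differed from the control testis. A minority of the ribosomal protein genes passed the test, nearly all of them higher in t(1;14). At an adjusted p of at most 0.01, 12 of 62 genes (19.4%) were higher, against 15.6% of all 40643 probes tested, and 2 (3.23%) were lower, against 15.6% of all probes. No member reached the second threshold of the methods, a log2 difference of at least 2, in the upward direction, where 1.31% of all probes did, and 1 member, RPL22, did so downward, where 4.3% of all probes did. The difference of group means was positive for 51 genes and negative for 11, where 56.9% of all probes were positive. Its median was 0.28 on the log2 scale, against 0.14 over all probes tested, and it ranged from -2.53 to 1.15. Within slides 1, 2 and 3 the median of the 62 genes was 0.26, 0.39 and 0.21. At the looser adjusted p of 0.05 with a log2 difference of at least 1, 4 members were higher and 1 was lower, against 9.13% and 13.2% of all probes. The lowest t(1;14) value exceeded the highest control value for 28 genes (45.2%), against 35.8% of all probes, and the groups were separated the other way for 4 genes (6.45%), against 26.2%. In biopsies of whole testis, fewer cells of a type and less RNA per cell cannot be told apart.

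The number of genes called depended on the arrays. Without t(1;14) array 1, 2 or 3 only 1, 2 or 1 genes were called higher, while the share of all probes called higher was 6.01%, 7.17% and 4.92%. Without control array 1, 2 or 3 the count was 9, 8 and 10, at 18%, 11.4% and 11.1% of all probes. With slide as a block 8 genes were higher and 1 was lower, at 10.8% and 13.4% of all probes. Of these 8, 6 were among the 12 and 2 gained a call, RPL36 and RPL38, large subunit proteins named here after their values were seen. RPL36 differed by 0.90 (adjusted p = 0.058 without the block and 0.0057 with it), by 0.99, 0.83 and 0.87 within slides 1, 2 and 3. RPL38 differed by 0.84 (adjusted p = 0.19 and 0.0060), by 0.81, 0.86 and 0.85 within slides, and its slide 1 array was the lowest of each group. Under each of 19 alternative fits, 2 named genes kept their call, RPS4 and RPL22.

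**Figure D1:**
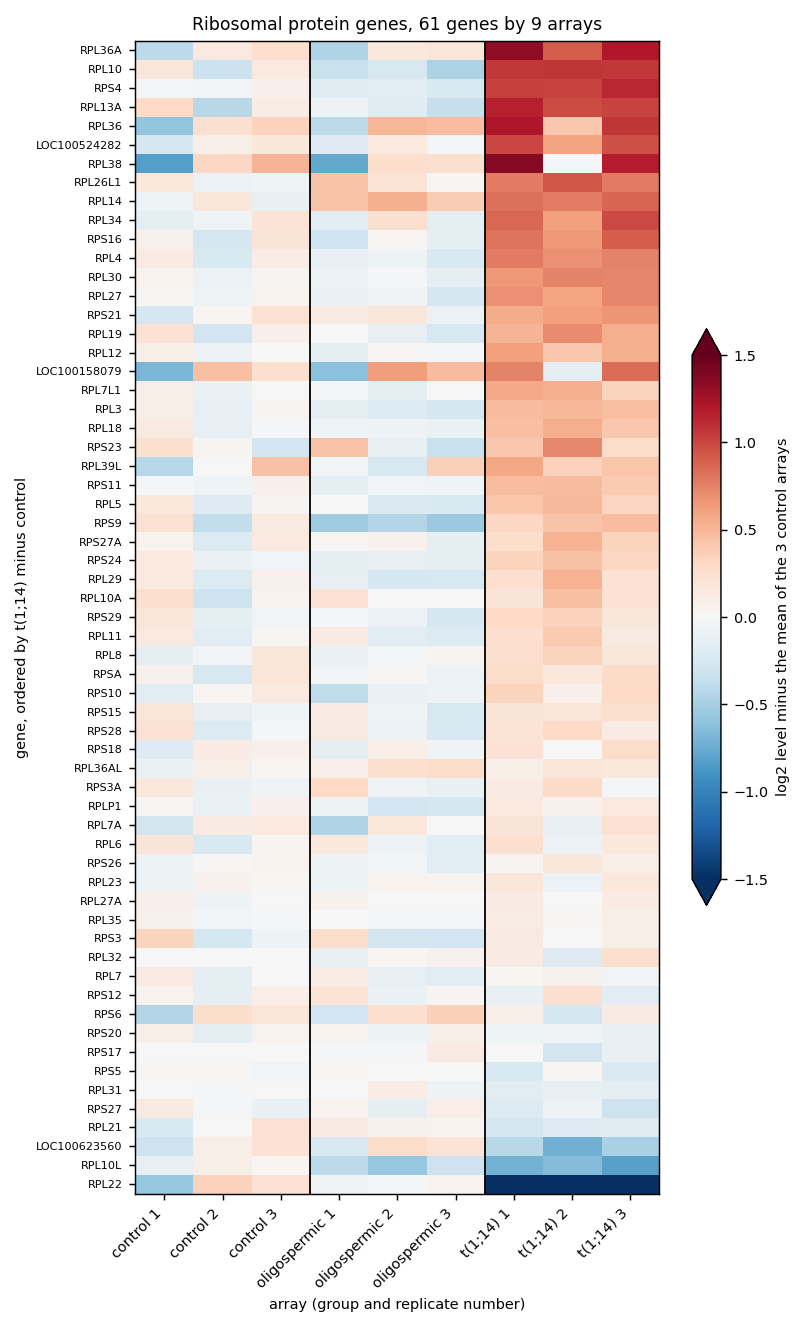
Heat map of 61 of the ribosomal protein genes (rows, ordered by the difference of t(1;14) from control) on the 9 arrays (columns, 3 per group), coloured by the log2 level minus the mean of the 3 control arrays, from blue (lower) to red (higher), with colours cut at 1.5 either way. The 3 t(1;14) columns are red in the upper part of the map, RPL10L and RPL22, at the foot of the map, are blue in these columns, and the oligospermic columns stay close to the controls.

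All 3 X-linked members rose, and together with RPL13A they had the 4 largest increases among the genes called. RPL10, a large subunit protein at the core of the ribosome, had log2 levels of 13.94, 13.43 and 13.90 on the control arrays, 13.42, 13.51 and 13.28 on the oligospermic arrays and 14.82, 14.83 and 14.82 on the t(1;14) arrays. The t(1;14) arrays lay above all others, and the control and oligospermic arrays overlapped. RPL10 was 2.09-fold higher in t(1;14) than in controls (log2 difference 1.07, SE 0.16, adjusted p = 0.0027). RPS4, a small subunit protein with a homologue on the Y chromosome in some mammals, had levels of 13.79, 13.78 and 13.90 in controls, 13.64, 13.67 and 13.60 in the oligospermic group and 14.85, 14.84 and 14.95 in t(1;14), a 2.08-fold increase over controls (log2 1.06, SE 0.11, adjusted p = 0.00056). RPL36A, another large subunit protein, had levels of 12.40, 12.93 and 13.04 in controls, 12.34, 12.94 and 12.97 in the oligospermic group and 14.12, 13.70 and 13.99 in t(1;14). Its lowest value in every group was that of slide 1, and within slides 1, 2 and 3 t(1;14) exceeded control by 1.30, 1.06 and 1.09. It was 2.22-fold higher in t(1;14) than in controls (log2 1.15, SE 0.21, adjusted p = 0.0055), and under 75th percentile scaling the adjusted p was 0.013. Among the 380 tested probes of other genes placed on chromosome X, 31.3% were called higher, with a median of 0.44, against 17.0% and 0.12 for the 8580 probes of other genes on autosomes other than 1 and 14.

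Of the autosomal copies, RPL10L fell and RPL36AL was not called. RPL10L had levels of 14.13, 14.35 and 14.28 in controls, 13.86, 13.69 and 13.94 in the oligospermic group and 13.54, 13.60 and 13.43 in t(1;14), so that the 3 groups did not overlap. It was 1.66-fold lower in t(1;14) than in controls (log2 -0.73, SE 0.12, adjusted p = 0.0032), and with slide as a block the adjusted p was 0.013. The other 2 probes of the RPL10L transcript, listed under its identifier only, differed by -0.72 (adjusted p = 0.0041) and -0.43 (adjusted p = 0.22). RPL36AL had levels of 14.55, 14.73 and 14.66 in controls, 14.71, 14.89 and 14.92 in the oligospermic group and 14.73, 14.82 and 14.80 in t(1;14), so that all t(1;14) arrays lay within the range of the oligospermic ones and above all controls, the lowest at 14.733 against 14.728 for the highest control. The difference from controls was 0.14 (SE 0.11, adjusted p = 0.32), and 0.02 under 75th percentile scaling.

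The difference between relative and copy was itself compared on each array. The pairs were shown because gene and copy changed differently on these same arrays. The comparison of t(1;14) with control therefore describes that difference and gives no independent support for it. From control to t(1;14) the RPL10 signal rose by 1.79 more than the RPL10L signal on the log2 scale, and the 3 values of each group did not overlap (two-sided exact permutation test of 3 arrays against 3, p = 0.1, the smallest this design allows). For RPL36A and RPL36AL the change was 1.01 larger in the X-linked gene (exact permutation p = 0.1). Between oligospermic and control the same 2 contrasts were 0.07 (exact permutation p = 0.8) and -0.23 (exact permutation p = 0.4).

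**Figure D2:**
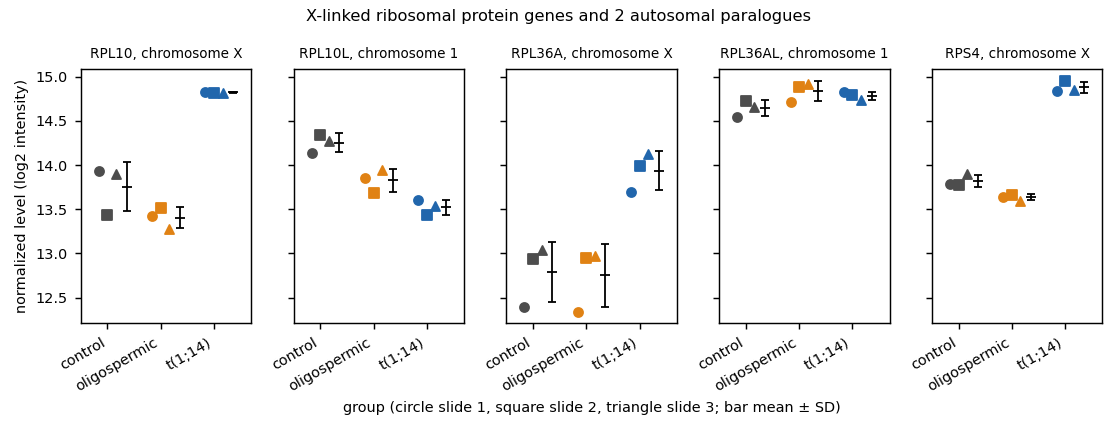
Normalized log2 intensity of RPL10, RPL10L, RPL36A, RPL36AL and RPS4 on each array (circle slide 1, square slide 2, triangle slide 3), with the mean and SD of each group of 3 arrays. RPL10, RPL36A and RPS4 sit higher on all t(1;14) arrays than on any other array, RPL10L sits lower, and RPL36AL stays between 14.55 and 14.92 throughout.

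RPL22, a large subunit protein that also binds viral and cellular RNAs, was the one member past both thresholds. Its levels were 7.35, 8.28 and 8.15 in controls, 7.87, 7.91 and 7.98 in the oligospermic group and 5.47, 5.25 and 5.45 in t(1;14). The t(1;14) arrays lay far below the others, which overlapped. The decrease from control was 5.79-fold (log2 -2.53, SE 0.26, adjusted p = 0.00057). The array held a single probe under this name, from an assembled transcript whose description matched part of human RPL22, its signal was low for a member, and no other probe shared its sequence, so that its identity rests on that description alone. With signals background-corrected by another method (normexp) RPL22 missed the fold threshold.

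Among the autosomal members of the large subunit, RPL13A, which also takes part in translational silencing after interferon, showed the largest increase. Its levels were 11.99, 11.27 and 11.79 in controls, 11.61, 11.50 and 11.34 in the oligospermic group and 12.85, 12.67 and 12.70 in t(1;14) (2.08-fold over control, log2 1.05, SE 0.20, adjusted p = 0.0064). RPL14 had levels of 13.33, 13.57 and 13.29 in controls and 14.22, 14.16 and 14.27 in t(1;14) (log2 0.82, SE 0.12, adjusted p = 0.0025). On the oligospermic arrays RPL14 lay between the other groups, at 13.82, 13.93 and 13.77, with no overlap. RPL34 averaged 14.02 on the control arrays (SD 0.19) and 14.84 on the t(1;14) arrays (SD 0.19), without overlap (log2 0.82, SE 0.16, adjusted p = 0.0062), and RPS16, of the small subunit, from 12.79, 12.47 and 12.92 to 13.54, 13.37 and 13.63 (log2 0.79, SE 0.16, adjusted p = 0.0074). With slide as a block the adjusted p of RPL13A, RPL34 and RPS16 was 0.011, 0.011 and 0.019. Under 75th percentile scaling 6 genes were called higher, and RPL14, RPL34 and RPS16 had an adjusted p of 0.013, 0.016 and 0.014. A predicted locus described as similar to RPL37A (LOC100524282) rose by 0.86 (SE 0.17, adjusted p = 0.0079, and 0.024 under 75th percentile scaling). RPL27 (0.67) and RPL30 (0.71), named after their values were seen, were also called higher. With slide as a block their adjusted p was 0.012 and 0.0101, and under 75th percentile scaling that of RPL27 was 0.011.

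RPL4, a large subunit protein at the peptide exit tunnel, served as the reference gene of the real-time PCR in the study's methods. It was itself higher in t(1;14). Its levels were 14.45, 14.09 and 14.43 in controls, 14.20, 14.25 and 14.10 in the oligospermic group and 15.10, 15.01 and 15.07 in t(1;14). The t(1;14) arrays lay above all 6 others, and the increase over control was 1.67-fold (log2 0.74, SE 0.14, adjusted p = 0.0056). With slide as a block the adjusted p was 0.014, and with 75th percentile scaling it was 0.0059.

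RPL5 and RPL11 form a particle with 5S ribosomal RNA that can bind the p53 regulator MDM2. RPL5 had levels of 15.26, 14.90 and 15.13 in controls and 15.52, 15.58 and 15.42 in t(1;14), without overlap (log2 difference 0.41, SE 0.13, adjusted p = 0.043), and RPL11 had 15.62, 15.31 and 15.49 against 15.73, 15.86 and 15.61, with overlap (0.26, SE 0.13, adjusted p = 0.15). Of the stalk, which recruits elongation factors, RPLP1 was the one protein with a listed probe, and its difference was 0.12 (SE 0.11, adjusted p = 0.40, and 0.23 under 75th percentile scaling). This probe was saturated on 5 of 9 arrays, and the 5 RPLP1 probes ranged from -0.02 to 0.67, with none called. RPS27A is made as a fusion with ubiquitin and differed by 0.38 (SE 0.14, adjusted p = 0.067). FAU, a ubiquitin-like fusion gene outside the name rule, differed by 0.25 (SE 0.13, adjusted p = 0.15).

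The remaining paralogues went different ways. RPL26L1, a close relative of RPL26, had levels of 12.02, 11.77 and 11.80 in controls, 12.29, 12.07 and 11.88 in the oligospermic group and 12.64, 12.79 and 12.64 in t(1;14) (1.78-fold over control, log2 0.83, SE 0.12, adjusted p = 0.0024). RPL7L1, which acts in assembly of the large subunit, differed by 0.48 (SE 0.12, adjusted p = 0.018), and by 0.29 (adjusted p = 0.089) under 75th percentile scaling. Its 4 probes ranged from 0.05 to that 0.48, with a median of 0.15. RPL39L, a copy of RPL39 active in the testis, was at low levels, 4.86, 5.28 and 5.72 in controls against 5.87, 5.63 and 5.71 in t(1;14), with overlap (0.45, SE 0.23, adjusted p = 0.14). In all, 1 of 5 measured paralogues was called higher, RPL26L1, and 1 lower, RPL10L, with a median of 0.45. By subunit, 8 of 30 large subunit genes were called higher and 1 lower (median 0.37), and 2 of 24 small subunit genes higher and none lower (median 0.22), against 15.6% of all probes in each direction. On chromosome 1, which takes part in the translocation, 1 of 10 members was called higher and 1 lower (median 0.11), where 15.7% of all probes placed there were higher and 20.7% lower. On chromosome 14, the other partner, 1 of 3 was called higher (median 0.36), where 15.04% of all probes were higher and 18.9% lower. The 42 members on other autosomes had a median of 0.27.

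The members called higher all lay in a middle range of brightness. Over the 62 members, level and difference had a Pearson correlation of 0.09, a description only, since the members share the arrays. Ribosomal protein probes were among the brightest of the array. The mean log2 level over the 9 arrays was above 15 for 30 members, and 20 of these were saturated on at least 1 array. None of these 30 genes was called in the limma fit, 5 had an unadjusted p under 0.05, and their median difference was 0.11. Of the 26 members between 10 and 15, 12 (46.2%) were called higher and 1 (3.85%) lower, with a median of 0.69, where among the 10561 probes of other genes in that band 18.9% were higher and 21.7% lower with a median of 0.10. Of the 6 members at 10 or below, none was called higher and 1 was lower, with a median of 0.10. Among the 485 probes of other genes above 15, 2.89% were called higher, 16.9% lower and the median was -0.02. On slide 2, where no member was saturated, the median over the 62 members was 0.39, against 0.26 and 0.21 on slides 1 and 3. In t(1;14) against oligospermic the slide 2 median was 0.33, against 0.35 and 0.43 on slides 1 and 3.

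For 19 of the 30 bright genes the table also listed a dimmer probe between 10 and 15 that was saturated nowhere. The median difference over these genes was 0.20 with the brightest probe and 0.55 with the dimmer one, and the dimmer probe gave the larger value for 18 of 19 genes. Of the dimmer probes, 5 were called higher. RPS3A, a small subunit protein, differed by 0.13 with its brightest probe and by 0.98 with the dimmer one (adjusted p = 0.0015), RPS23 by 0.47 and 0.92 (adjusted p = 0.0012) and RPS15 by 0.21 and 0.77 (adjusted p = 0.0032). RPS12 was near 0 with both, at -0.01 and 0.03. These 4 genes were chosen after their values were seen. With each gene represented by its brightest probe under a level of 15, an alternative chosen after seeing the data, the median over 54 genes was 0.59 and 17 were called higher.

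**Figure D3:**
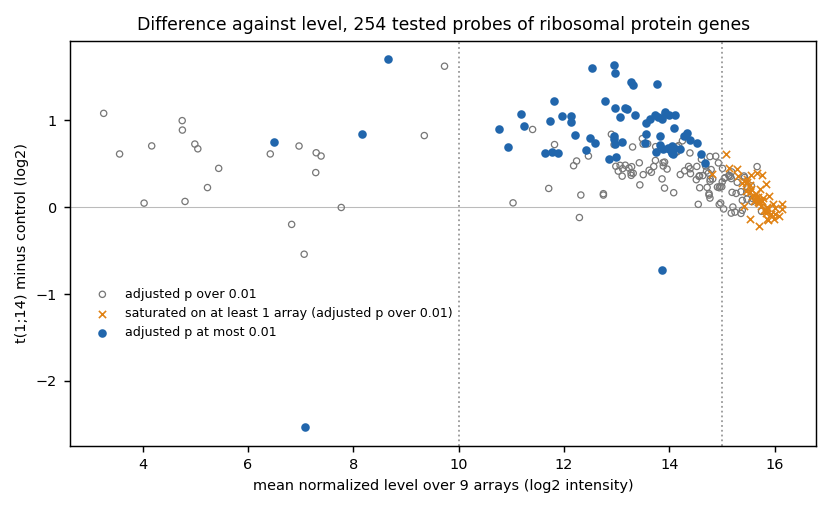
Difference of t(1;14) from control (log2) against the mean normalized level over the 9 arrays for all 254 tested probes of ribosomal protein genes, with dotted lines at levels of 10 and 15. Probes saturated on at least 1 array (orange crosses) range from -0.22 to 0.61, probes called at an adjusted p of at most 0.01 (blue) lie mostly between 10 and 15, and the lowest point, at a difference of -2.53, is RPL22.

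All probes of the member genes were also counted. Probes of a gene share its transcript and are not replicates. Of 254 tested probes of 67 genes, 68 were called higher and 2 lower, and the median was 0.43, where over all probes 15.6% were called in each direction and the median was 0.14. RPS4 had 17 probes, and all 17 were called higher, from 0.94 to 1.64. All 5 probes of RPL10 were called higher, from 0.66 to 1.15, as were both probes of RPL36A, at 1.00 and 1.15, and all 4 probes of RPL26L1, from 0.62 to 0.83. RPL5 had 18 probes between 0.41 and 0.72, of which 8 were called higher, and RPL11 had 3 of 4 called, with a median of 0.72. In contrast, the 7 probes of RPS20 lay between -0.14 and 0.01 and the 7 probes of RPS12 between -0.06 and 0.04, and each RPS20 probe was saturated on at least 5 arrays. The signs of RPS12 and RPS20 turned under 75th percentile scaling. Among the 25 genes with 4 or more tested probes, 19 had only positive differences, 15 had at least 1 probe called higher and none had a probe called lower.

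**Figure D4:**
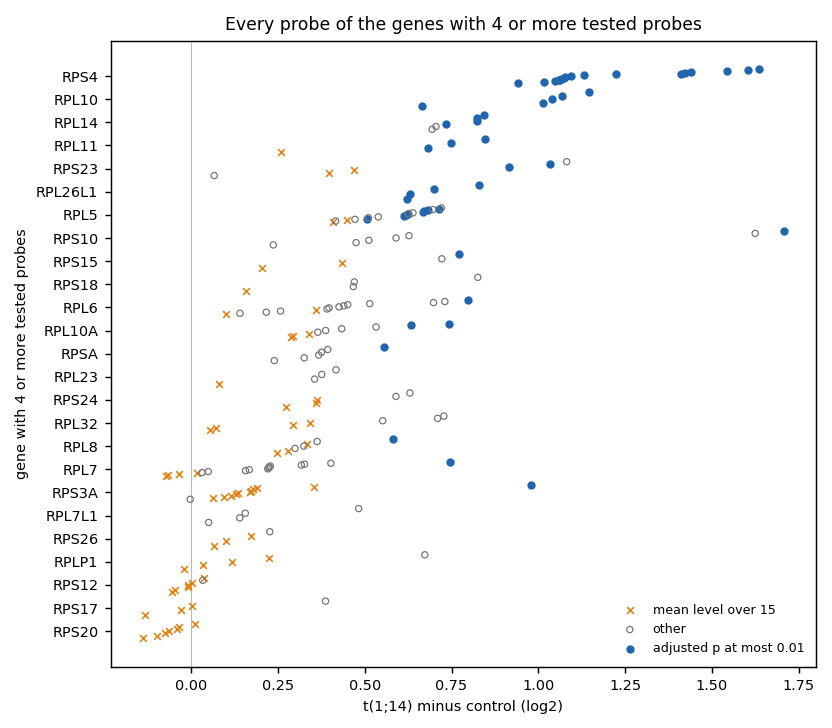
Difference of t(1;14) from control (log2) for every tested probe of the 25 ribosomal protein genes with 4 or more tested probes, each row a gene in order of its median, blue where the adjusted p was at most 0.01 and orange crosses where an uncalled probe had a mean level over 15. All 17 probes of RPS4 lie between 0.94 and 1.64, and those of RPS20 lie between -0.14 and 0.01.

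The second comparison set the t(1;14) testis against the oligospermic testis. Here 22 of 62 genes (35.5%) were higher in t(1;14) at an adjusted p of at most 0.01, against 27.1% of 40567 probes, and 1 (1.61%), RPL22, was lower, against 22% of all probes. None passed both thresholds upward, where 1.93% of all probes did, and RPL22 did so downward, where 4.89% did. The median was 0.36, against 0.14 over all probes, and it was 0.35, 0.33 and 0.43 within slides 1, 2 and 3. At the looser thresholds 4 members were higher and 1 was lower, against 11.9% and 14.6% of all probes. The groups were separated upward for 34 genes (54.8%), against 40.7% of all probes, and downward for 5 (8.06%), against 30.2%. Without t(1;14) array 1 or 3, 11 or 13 genes were called higher, at 19.4% and 17.7% of all probes.

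The 3 X-linked genes and RPL13A again had the 4 largest increases among the genes called, except that RPS9 passed RPL36A under 75th percentile scaling. RPL10 was 2.67-fold higher in t(1;14) than in the oligospermic group (log2 1.42, SE 0.10, adjusted p = 5.7e-05), RPS4 2.37-fold (log2 1.24, SE 0.09, adjusted p = 6.1e-05) and RPL36A 2.27-fold (log2 1.18, SE 0.21, adjusted p = 0.0028). RPL13A was 2.38-fold higher (log2 1.25, SE 0.11, adjusted p = 0.00015). RPS9, a small subunit protein measured by a dim probe, had levels of 6.79, 6.89 and 6.76 in the oligospermic group and 7.64, 7.75 and 7.79 in t(1;14) (log2 0.91, SE 0.09, adjusted p = 0.00028), with controls at 7.56, 6.96 and 7.47, between the other groups and overlapping neither.

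RPL4 and RPS16 were higher by 0.88 (SE 0.09, adjusted p = 0.00028) and 0.92 (SE 0.13, adjusted p = 0.00094), and RPL5 by 0.56 (SE 0.10, adjusted p = 0.0038). RPL10L differed by -0.30 (SE 0.11, adjusted p = 0.042), and under 75th percentile scaling by -0.55 (adjusted p = 0.0068), where it was called. RPL36AL differed by -0.06 (SE 0.10, adjusted p = 0.63). RPL22 was 5.77-fold lower (log2 -2.53, SE 0.10, adjusted p = 1.9e-05). Over all probes of the members, 122 of 254 were called higher and 1 lower, and 17 of the 18 RPL5 probes were among those higher. Of the 7 probes of RPS10, 2 dim ones, chosen here after their values were seen, differed by 2.35 and 2.33 and the others by 0.42 to 0.83.

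The third comparison asked whether the oligospermic testis, with a normal karyotype, differed from the control testis. No ribosomal protein gene was called in either direction by limma, at 0.0478% of 39713 probes called higher and 0.0277% lower, and 3 of the 62 genes had an unadjusted p under 0.05. The smallest adjusted p was 0.33. None passed both thresholds, where 0.0453% of all probes were higher and 0.0277% lower, or the looser ones, where 0.128% were higher and 0.073% lower. The median difference was -0.03, against 0.00 over all probes, and differences ranged from -0.51 to 0.45. Within slides 1, 2 and 3 the median was -0.04, 0.04 and -0.17, so that its sign differed between slides. For 1 gene (1.61%) the oligospermic arrays lay above all controls, against 8.02% of all probes, and for 5 (8.06%) below, against 7.71%. The gene above was RPL14 (0.45, SE 0.13, adjusted p = 0.33), and those below were RPS9 (-0.51, adjusted p = 0.43), RPL10L (-0.42, adjusted p = 0.36), RPS4 (-0.19, adjusted p = 0.69), and RPL3 (-0.21) and RPS24 (-0.13), which were named after their values were seen. These values do not show that the groups were alike.

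**Figure D5:**
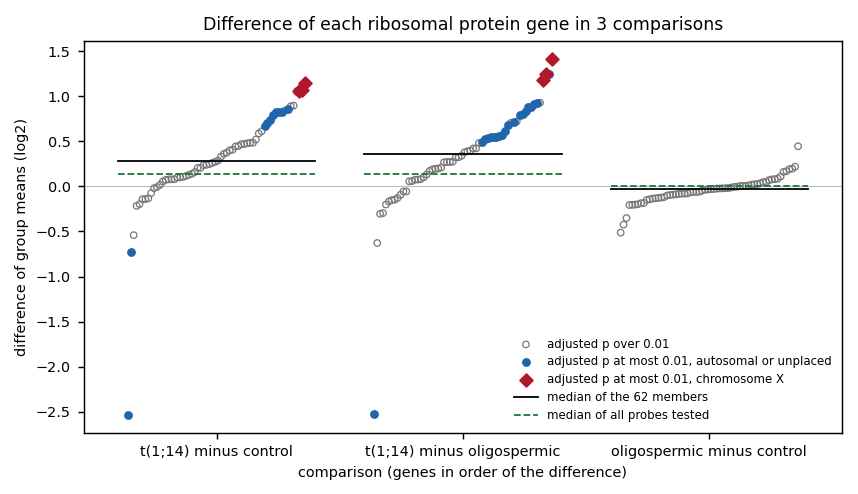
Difference of group means (log2) of the 62 ribosomal protein genes in each comparison, genes in order of the difference, filled where the adjusted p was at most 0.01 (red diamonds on chromosome X), with the median of the members (solid line) and of all probes tested (dashed line). The medians of the members are 0.28, 0.36 and -0.03, the X-linked genes stand at the upper end of both comparisons with t(1;14), and no gene is filled between oligospermic and control.

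Other genes of the ribosome pathway were counted in t(1;14) against control from fixed lists, beside 15.6% of all probes called in each direction. Of 27 tested ribosome assembly factors, 7 were higher and 1 lower (median 0.37), among them DKC1, the X-linked pseudouridine synthase (log2 0.92, SE 0.13, adjusted p = 0.0023), NOP58, of the box C/D particles (0.74, SE 0.12, adjusted p = 0.0032), and, lower, UTP3, of the small subunit processome (-0.61, SE 0.12, adjusted p = 0.0065). Of 10 other mRNAs with a pyrimidine tract at their start, 4 were higher and none lower (median 0.30). The 4 were TPT1 (0.55), GLTSCR2 (1.20), CCNG1 (1.06) and VIM (2.11), and VIM also passed the fold threshold, while the 6 not called were EEF1A1 (0.05), EIF3E (0.27), GNB2L1 (0.33), HNRNPA1 (-0.36), PABPC1 (-0.42, adjusted p = 0.025) and EEF1G (-0.50, adjusted p = 0.027). None of 3 measured genes of RNA polymerase I was called by limma, and 1 had an unadjusted p under 0.05 (median -0.32). Of 21 tested mitochondrial ribosomal proteins, 2 were higher and none lower (median 0.30). In t(1;14) against oligospermic, where 27.1% of all probes were higher and 22% lower, the counts of higher and lower genes were 10 and 2 assembly factors, 4 and none of the other pyrimidine tract mRNAs, none and 1 for RNA polymerase I, and 5 and 2 mitochondrial ribosomal proteins. In oligospermic against control none of these genes was called by limma, and 3 assembly factors, 1 other pyrimidine tract mRNA, 1 RNA polymerase I gene and 2 mitochondrial ribosomal proteins had an unadjusted p under 0.05.

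Markers of testicular cell types moved with the t(1;14) group. Of 8 measured spermatid markers, 6 were lower than in controls and none higher (median -1.78), and their summed intensity lay between 167182 and 170031 on the t(1;14) arrays against 297572 to 343982 in controls and 306730 to 329180 in the oligospermic group. Of 6 Leydig cell markers, 5 were higher (median 2.48), with sums of 122277 to 131099 against 60563 to 63904 in controls and 48009 to 64182 in the oligospermic group. Spermatocyte markers gave 1 higher and 2 lower of 4, with sums of 7424 to 7739 against 9681 to 10537. Spermatogonium markers gave 1 higher of 3 tested, with sums of 6861 to 7393 against 3463 to 5073, and Sertoli cell markers 1 higher and 2 lower of 8, with sums of 21946 to 26252 against 12158 to 23907. Peritubular and vascular markers gave 2 higher and 1 lower of 6, with sums of 13693 to 18971 against 12718 to 23351. Immune cell markers gave 1 higher of 3 tested, with sums of 283 to 338 against 142 to 238, and the tested red blood cell marker was not called, with sums of 13.82 to 23.97 against 13.23 to 61.96. GFRA1, CD3E, CD4 and SLC4A1 were well above background on no array. The part of these shifts in the differences of the ribosomal protein genes was not tested.

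Of the 10 genes without a probe in the value table, 5 passed the filter on low signal in t(1;14) against control. RPS13, a small subunit protein, differed by 0.47 (SE 0.12, adjusted p = 0.017), RPL23A by 0.23 (SE 0.12, adjusted p = 0.14) and RPLP2, of the stalk and saturated on all 9 arrays, by -0.08 (SE 0.16, adjusted p = 0.71), which is only a comparison of saturated values. A predicted locus, LOC100525845, gave 0.42 (adjusted p = 0.12). RPL35A, with 4 arrays above background, entered the filter only through the t(1;14) arrays and is given no test here. The probes of RPL9, RPL24, RPS14, RPS19 and LOC100738324 were too dim to be tested.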

How the data were processed

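Testicular RNA was labelled with cyanine 3 by the authors and hybridized to a custom porcine array. The deposited scanner files (Feature Extraction 11.5.1.1) hold the processed intensity of each probe, background-subtracted on a linear scale, and the deposited value list holds log2 values, quantile normalized by the authors. Here the processed intensity was converted to log2, quantile normalized over the 9 arrays and averaged over spots of a probe. Probes were tested when, in either group compared, 2 or more of its 3 arrays read them well above background with no outlier flag. Each pair of groups was fitted with limma 3.58.1 (lmFit and eBayes) in R 4.3.3 with the package data.table in version 1.17.8, and p-values were adjusted by Benjamini and Hochberg over all probes tested. Thresholds were an adjusted p of 0.01, alone and with a log2 difference of 2, the latter as in the study's methods. Differences between paired probes were tested by exact permutation (scipy 1.17.1, pandas 2.3.3, Python 3.11.15). Intensities have no counting error, and the 3 arrays per group limit the precision. On simulated data with few changed probes the fit recovered most of the large changes and none of the small ones, so that a gene without a call may still differ.

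Named genes were those past both thresholds, the 8 largest called rises and falls without overlap in each comparison, all measured members of the 5S particle, stalk, paralogue and fusion lists, RPL4, and genes whose probes disagreed past the threshold (there were none). Members and lists were chosen with earlier results of these data known. Assembly factor, pyrimidine tract, RNA polymerase I and cell type lists used 1 probe per gene, the one with the highest mean. Some items entered the counts but are not reported here by name. Chromosomes were taken by symbol from RefSeq. Same-numbered control and oligospermic arrays shared a slide, so these numbers pair the arrays by slide. Their deviations correlated at 0.478, 0.136 and 0.101 over probes. Control 2 with oligospermic 3 gave 0.273 and control 3 with oligospermic 2 gave 0.149, so the correlations do not by themselves show a pairing. The t(1;14) arrays did not share a slide with the same-numbered arrays of the other groups. Alternatives were 75th percentile scaling, normexp with an offset of 50, normalization over 6 arrays, the deposited log2 values, other filters, slide or replicate blocks, a joint model of the 9 arrays, an intensity trend, other choices of probes and members, other thresholds, and leaving out each array.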

Additional observations from a re-analysis of the deposited data

How the results depend on the processing

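No difference past the threshold changed sign under the alternatives run. Small differences that were not called did. With 75th percentile scaling the signs of RPL7A, RPS12 and RPS20 turned in t(1;14) against control, and in oligospermic against control those of 11 genes, and RPL22 there lay between -0.29 and 0.17 as arrays were left out. Between oligospermic and control, the 86 recomputed counts and medians changed no call, with no gene called and leave-one-out medians of -0.07 to -0.01.

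In t(1;14) against control, the 12 genes called higher became 6 with 75th percentile scaling, 7 without a filter, 19 with all 9 arrays in 1 model, 19 with an intensity trend and 4 at an adjusted p of 0.05 with a log2 difference of 1. The 2 genes called lower became 1 with slide as a block, 1 at an adjusted p of 0.05 with a log2 difference of 1, 0 with members taken by gene name alone and 4 with the description rule read literally, an alternative chosen after seeing the data. RPL22, past both thresholds, gave a count of 0 with normexp and 0 by gene name alone. The median of 0.28 became 0.46 without saturated probes, 0.44 with the mean over the probes of a gene and 0.59 with the brightest probe under a level of 15, chosen after seeing the data. Leaving out 1 array gave 1 to 10 genes higher, 1 to 2 lower and medians of 0.22 to 0.34.

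In t(1;14) against oligospermic, the 22 genes called higher became 4 at an adjusted p of 0.05 with a log2 difference of 1. The 1 gene called lower became 2 with 75th percentile scaling, which added RPL10L, 2 with the filter on all 6 arrays, 2 with slide as a block, 3 with an intensity trend, 3 with the literal description rule and 0 by gene name alone. The count past both thresholds was 0 with normexp and 0 by gene name alone. The median of 0.36 became 0.53 without saturated probes, 0.50 with the mean over probes and 0.69 with the brightest probe under a level of 15. Leaving out 1 array gave 11 to 22 genes higher, 1 to 2 lower and medians of 0.33 to 0.39.

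With the replicate number as a block, 1 gene was called higher and 1 lower in t(1;14) against control, and 8 higher and 1 lower in t(1;14) against oligospermic. There same-numbered arrays lay on different slides, and their deviations correlated between -0.421 and 0.139. In oligospermic against control, where same-numbered arrays shared a slide, the block changed no call, with 0 genes called. The cause of these changes was not tested, apart from those fixed by construction (fewer arrays, members or probes). The part of saturation in the small differences of the brightest probes was not tested, and each group's spread rests on 3 arrays.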
